A study of Homo sapiens with 12 samples.

Results

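The Golgi enzymes that trim, extend and cap N-glycans, and the proteins that make and carry the sugars for them, were followed at the RNA level in myeloma cells whose oligosaccharyltransferase was inhibited. The 34 genes were chosen by name: 5 Golgi mannosidases, 5 N-acetylglucosaminyltransferases, FUT8 with 2 genes of fucose supply, 6 β-galactosyltransferases with UGP2, 7 sialyltransferases, 4 genes of sialic acid supply and 3 nucleotide sugar transporters. All 34 were found by symbol among the 59276 features of the deposited table, and all 34 were among the 11939 features kept after a filter on low values (TPM 1 or more in 3 or more libraries). TPM is a length-corrected share of the transcripts in a library, so levels of different genes can be set side by side.

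The samples were 12 libraries of total RNA from MM1S, an established human multiple myeloma line of plasma cell origin, in 4 groups of 3 libraries. The untreated group carries the label day 0, and the other groups were kept in NGI-1 at 10 μM, a compound that blocks both forms of the oligosaccharyltransferase (OST) complex, for 2, 3 and 5 days. The labels name NGI-1 for the day 0 libraries too, and these were read as untreated because the study treats them so. Whether they received solvent and when they were harvested is not given. Whether the 3 libraries of a group came from separate cultures is not given either, so p-values measure the spread between these libraries, which may be technical. All groups are 1 cell line, and each treated day was compared with the same 3 untreated libraries.

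N-glycans are attached to proteins as a preformed block of sugars by the OST complex in the endoplasmic reticulum. In the Golgi, mannosidases remove mannose from this block, MGAT enzymes start and multiply the antennae, FUT8 adds a fucose to the core, galactosyltransferases lengthen the antennae and sialyltransferases close them with sialic acid. Each of the enzymes that add a sugar uses an activated sugar that is made in the cytosol or nucleus and carried into the Golgi by a transporter of the SLC35 family. Plasma cells pass large amounts of glycoprotein, immunoglobulin among it, through this pathway.

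Sequencing depth was over 60 M read pairs for each library by the labels, but TPM keeps no read counts, so counting error cannot be given. From 18164 to 20407 features were detected above 0 in a library. All 10 plasma cell markers looked at were present in every library, from a lowest value of 14.9 TPM (CD38) upwards, and their summed level lay between 12149.5 and 28461 TPM. The 13 markers of other cells summed to between 7.37 and 27.2 TPM, nearly all of it KRT18 and CD3E, and this sum was 15.6 to 18.4 TPM untreated, 20.2 to 27.2 at day 2, 10.8 to 14.4 at day 3 and 7.37 to 10.6 at day 5. CD3D, EPCAM and COL1A2 were listed at 0 in all libraries. Transcripts of 79 ribosomal protein genes took 28.4 to 29.5% of all TPM in the untreated libraries and 47.7 to 49.4% at day 5, and 37 mitochondrial features went from 9.33 to 10.7% to 13.4 to 14.7%. Their part in the results was not tested. Over the same days, the typical tested feature lost TPM against day 0, with a median log2 fold change of -0.18 at day 2, -0.73 at day 3 and -0.99 at day 5. The counts of members called are therefore also given after rescaling, in which every library was divided by 1 factor that set its median log2 deviation to 0 over the 5433 features whose mean TPM was 10 or more. Because values are shares of bulk RNA, less RNA per cell and fewer cells that make it cannot be told apart.

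Over the treatment, most of the pathway lost transcript share while its most abundant member gained. A call of lower or higher needed an adjusted p under 0.05 in limma and a change of over 0.5 in size on the log2(TPM + 1) scale. At day 2, 7 of the 34 genes were called lower and 4 higher, where 23.2% and 8.04% of all tested features were. At day 3, 28 were called lower and 2 higher, against 61.5% and 7.59% of all features. At day 5, 29 were called lower and 2 higher, against 69.8% and 7.73%. The median log2 fold change of the 34 genes was -0.08, -0.83 and -1.16 at days 2, 3 and 5, close to the median of all features on each day. The falls of most members thus had about the size of the general fall in TPM of these libraries.

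After rescaling, 5 members were lower and 4 higher at day 2 (all features 11.4% and 12.9%), 7 lower and 5 higher at day 3 (24.2% and 23.9%), and 11 lower and 6 higher at day 5 (26.9% and 27.5%). The 11 genes lower at day 5 on both scales were MAN1A1, MAN1C1, MGAT5, GMDS, SLC35C1, B4GALT2, ST3GAL2, ST3GAL5, NANS, NANP and SLC35A2. They held at least 1 gene of every role. Of the other members lower on the deposited scale, 17 were not called after rescaling and 1, UGP2, was called higher. Only ST3GAL6 and SLC35A1 were called higher at day 5 on both scales.

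**Figure D1:**
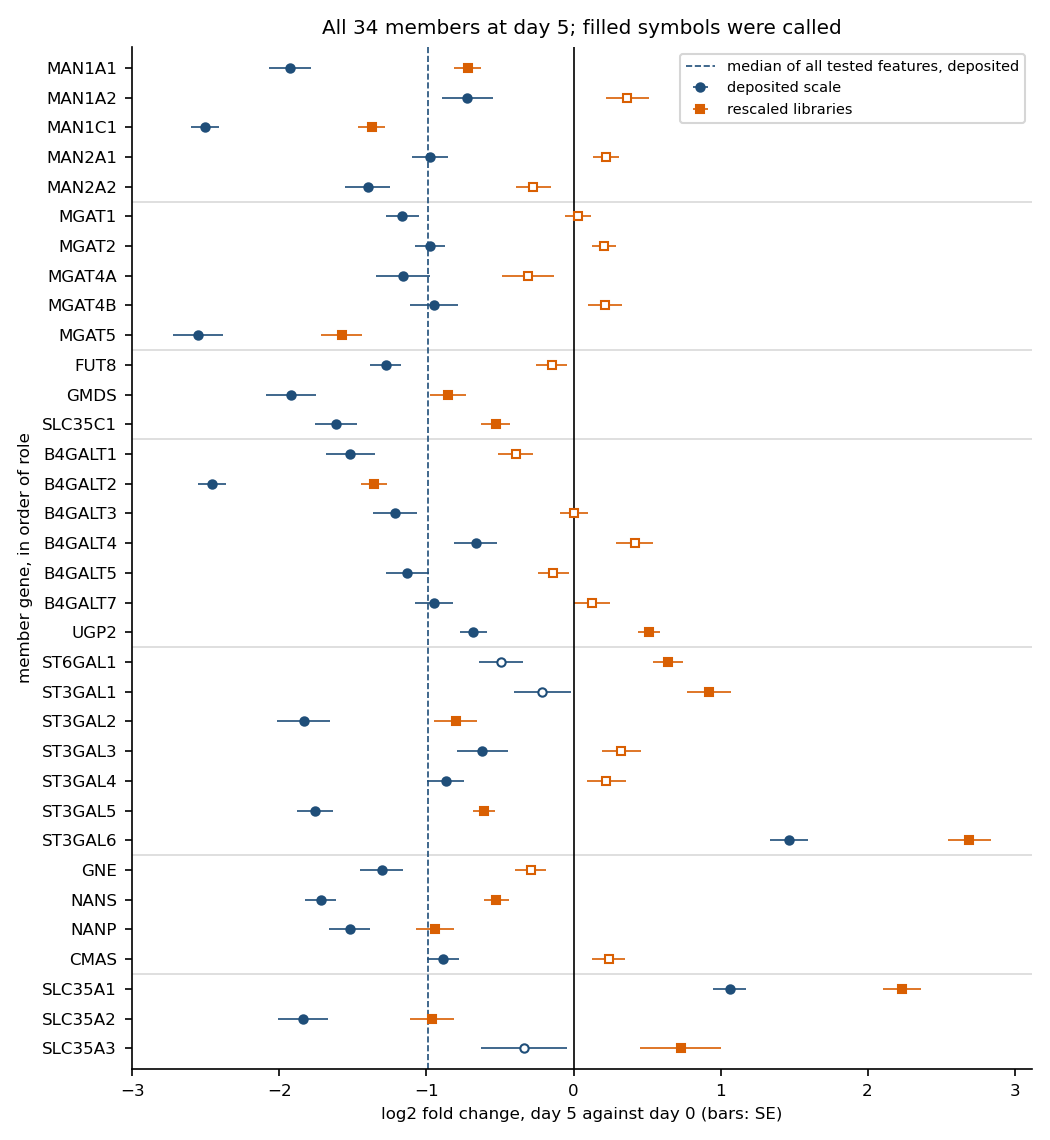
Log2 fold change at day 5 against day 0 of all 34 genes (points, with SE as bars) on the deposited scale and after rescaling, grouped by role and with filled symbols where the gene was called. Most deposited values lie around the dashed line, the median of all tested features, while ST3GAL6 and SLC35A1 lie to the right of 0 on both scales and MGAT5, MAN1C1 and B4GALT2 lie at or below -2.46 on the deposited scale.

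Most of the change fell between days 2 and 3. In that interval 23 members were called lower and 2 higher (all features 55.5% and 3.22%), or 7 and 2 after rescaling (13.6% and 14.3%). Between days 3 and 5, 6 were called lower and none higher (13.1% and 0.67%), or 2 and 2 after rescaling (2.03% and 4.43%). The 2 higher after rescaling were ST3GAL6 and SLC35A1. The count of 6 rose to 12 when the day 5 library H12 was left out (25.4% of all features were then called lower), a library in which many of the falling genes stood above the other day 5 libraries. The F test over the 4 groups passed 33 of the 34 genes (90.1% of all features), all but SLC35A3, and 29 after rescaling (75.6%).

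ST3GAL6 was the most abundant of the 34 genes in every library and was the only one called higher on all 3 days. It encodes a Golgi sialyltransferase that places sialic acid on the terminal galactose of N-glycan antennae and of glycolipids. In GENCODE release 29 the gene lies at chr3:98732236-98821201 (+ strand) on GRCh38. Its levels were 503, 571 and 536 TPM untreated, 955, 638 and 905 on day 2, 1405, 1214 and 1403 on day 3 and 1324, 1523 and 1619.9 on day 5. All treated libraries stood above all untreated ones, and the day 2 library H5 was the nearest to them. The log2 fold change was 0.61 at day 2 (SE 0.13, adjusted p = 0.00185), 1.32 at day 3 (SE 0.13, adjusted p = 6.69e-07) and 1.47 at day 5 (SE 0.13, adjusted p = 1.27e-07). Between days 2 and 3 it rose by 0.71 (SE 0.13, adjusted p = 3.27e-04). Between days 3 and 5 the difference was 0.15 (SE 0.13, adjusted p = 0.400) on the deposited scale, and it was called higher after rescaling. The gene went from rank 220 to 243 among all features in the untreated libraries to rank 99 to 110 at day 5. Its day 5 fold change was larger than that of 98.5% of tested features. ST3GAL6-AS1, an antisense transcript that overlaps the gene, averaged 40.4 TPM untreated and 62.6 TPM at day 5, and whether the quantification used strand is not given.

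At day 3 and after, ST3GAL6 held most of the transcript of the whole set. It made up 32.5, 35.3 and 34.03% of the summed TPM of the 34 genes in the untreated libraries, 46.8, 36.6 and 46.6% on day 2, 71.02, 64.7 and 71.8% on day 3 and 77.99, 78.6 and 75.9% on day 5. The sum over the other 33 genes was 1043, 1046 and 1039 TPM untreated, 1087, 1104 and 1039 TPM on day 2, 573, 662 and 551 TPM on day 3 and 374, 414 and 513 TPM on day 5. The sum over all 34 genes was higher at day 5 (1697 to 2133 TPM) than untreated (1546 to 1617 TPM).

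SLC35A1, which carries CMP-sialic acid into the Golgi and so supplies every sialyltransferase, was the other gene to rise. It lies at chr6:87470623-87512336 (+ strand). Its levels were 14.6, 17.9 and 16.97 TPM untreated, 18.9, 17.1 and 21.2 on day 2, 31.9, 26.6 and 31.6 on day 3 and 34.98, 34.7 and 36.6 on day 5. The untreated and day 2 libraries overlapped, while all libraries of days 3 and 5 stood above both. The log2 fold change was 0.20 at day 2 (SE 0.11, adjusted p = 0.170), 0.83 at day 3 (SE 0.11, adjusted p = 1.30e-05) and 1.06 at day 5 (SE 0.11, adjusted p = 7.42e-07). After rescaling the day 5 values of ST3GAL6 and SLC35A1 were 2.69 and 2.24.

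The RefSeq promoter windows of both genes are shown because these were the only members that rose on both scales at days 3 and 5. Each line gives the 250 bases before the annotated start on GRCh38.p14 (chr3:98732012-98732261, + strand, and chr6:87472724-87472973, + strand), 5′ to 3′ on the gene's strand, with GC boxes (GGGCGG on either strand) in capitals.
ST3GAL6: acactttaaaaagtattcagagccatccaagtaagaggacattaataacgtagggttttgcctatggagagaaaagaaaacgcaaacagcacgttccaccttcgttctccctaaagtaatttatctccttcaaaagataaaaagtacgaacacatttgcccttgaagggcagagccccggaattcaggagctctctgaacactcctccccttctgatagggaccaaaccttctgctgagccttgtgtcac
SLC35A1: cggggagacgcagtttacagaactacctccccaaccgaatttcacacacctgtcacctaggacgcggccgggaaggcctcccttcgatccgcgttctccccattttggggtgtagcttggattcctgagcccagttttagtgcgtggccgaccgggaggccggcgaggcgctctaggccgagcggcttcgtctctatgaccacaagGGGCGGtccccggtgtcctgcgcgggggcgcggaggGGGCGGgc
The SLC35A1 stretch lies inside the GENCODE span of the gene, and the ST3GAL6 stretch reaches into its first bases, since RefSeq places these starts further in. Their base composition differed, with 44% G or C for ST3GAL6 and 66% for SLC35A1. The SLC35A1 stretch holds 2 GC boxes, and the ST3GAL6 stretch holds neither a GC box nor a CCAAT box, although others of the 4 listed ST3GAL6 windows do. In whole windows, which also hold 50 bases after the start, 44.95% of all 35116 windows in the RefSeq table held a GC box and 34.61% a CCAAT box. No E-box (CACGTG), CRE (TGACGTCA), UPRE core (TGACGTGG) or ACGTGGC motif was found in any window of these 2 genes. These letters were looked for after the expression values were known, and a match or its absence is a description only.

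Of the other 6 sialyltransferases, 2 were called higher at day 2 and 4 were called lower at day 5, and 2 of these 4 remained lower after rescaling (ST3GAL2 and ST3GAL5). The shares of all tested features were 8.04% higher at day 2, and 69.8% lower at day 5 or 26.9% after rescaling. ST6GAL1, which caps N-glycan galactose in a different linkage from the ST3GAL enzymes and is the classical sialyltransferase of the B lineage, had 14.3, 14.6 and 14.6 TPM untreated, 20.7, 24.3 and 25.001 on day 2, 11.5, 15.5 and 12.1 on day 3 and 8.50, 9.19 and 12.9 on day 5. Its 3 day 2 libraries stood above all others, with a log2 fold change of 0.64 (SE 0.15, adjusted p = 0.00344), and at day 5 the value was -0.49 (SE 0.15, adjusted p = 0.00735), just short of the fold threshold. It passed that threshold when the day 5 library H12 was left out (-0.66). ST3GAL1, which acts mainly on O-glycans, had 14.6, 11.5 and 14.3 TPM untreated, 17.5, 22.7 and 22.3 on day 2, 14.9, 17.97 and 10.7 on day 3 and 9.06, 11.3 and 14.6 on day 5. The day 2 mean was the highest again (log2 fold change 0.59, SE 0.19, adjusted p = 0.0230), a call that was lost without H2 (0.49), H5 (0.53) or H6 (0.54). At days 3 and 5 the ST3GAL1 libraries overlapped the untreated ones. After rescaling ST6GAL1 and ST3GAL1 were called higher on all 3 days, as was ST3GAL6, with day 5 values of 0.64 and 0.92.

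ST3GAL2, ST3GAL4 and ST3GAL5 went the other way. ST3GAL2, an enzyme of O-glycans and gangliosides, had 13.8, 10.7 and 15.9 TPM untreated, 5.29, 7.73 and 5.87 on day 2, 4.42, 4.56 and 3.99 on day 3 and 2.41, 2.75 and 4.03 on day 5. Every treated library was below every untreated one, and the log2 fold change went from -0.98 at day 2 to -1.84 at day 5 (SE 0.18, adjusted p = 3.37e-07), lower on all 3 days on both scales. ST3GAL4, which like ST3GAL6 acts on N-glycan antennae, had 13.1, 10.8 and 11.04 TPM untreated, 7.53, 5.76 and 6.20 on day 2, 5.74, 6.09 and 5.90 on day 3 and 5.73, 6.47 and 5.49 on day 5. On the deposited scale it was called lower at day 2 (-0.75, SE 0.12, adjusted p = 2.80e-04) and stood at -0.87 at day 5, and days 2 and 5 did not differ past the threshold (-0.12, adjusted p = 0.390). After rescaling it was lower at day 2 (-0.52), not called at day 5 (0.22), and higher at day 5 than at day 2 (0.75, adjusted p = 4.07e-04). ST3GAL5, which makes the ganglioside GM3, had 31.04, 31.1 and 31.5 TPM untreated, 24.2, 23.8 and 23.3 on day 2, 12.4, 14.8 and 11.995 on day 3 and 7.51, 7.85 and 10.6 on day 5. The 4 days did not overlap, and the day 5 value was -1.76 (SE 0.12, adjusted p = 1.26e-08).

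ST3GAL3, the least abundant sialyltransferase of untreated cells, had 4.57, 3.88 and 5.54 TPM untreated, 5.56, 5.70 and 5.39 on day 2, 2.61, 3.30 and 2.56 on day 3 and 2.01, 2.40 and 3.79 on day 5. It was called lower at day 3 (-0.56, SE 0.17, adjusted p = 0.00822) and day 5 (-0.62, SE 0.17, adjusted p = 0.00393), calls that were lost without H3 at day 3 (-0.45) and without H10 at day 5 (-0.48), and after rescaling the day 5 value was 0.33 and not called. Beside ST3GAL6 these enzymes were scarce. ST3GAL6 held 84.6, 87.4 and 85.2% of the TPM of the 7 sialyltransferases in untreated cells, and 97.4, 97.4 and 96.9% on day 5. The other 6 together had 82.5 to 93.01 TPM untreated and 35.2 to 51.3 TPM at day 5.

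**Figure D2:**
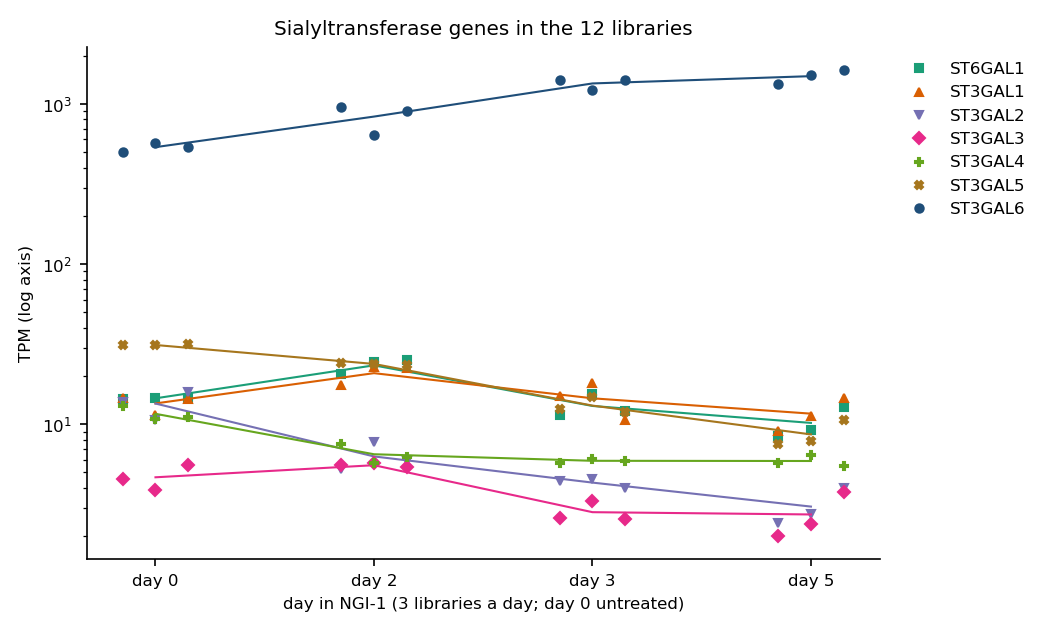
TPM on a log axis of the 7 sialyltransferase genes in each of the 12 libraries (points), with lines through the group means. ST3GAL6 lies between 503 and 1619.9 TPM and rises, ST6GAL1, ST3GAL1 and ST3GAL3 have their highest mean at day 2, and ST3GAL2, ST3GAL4 and ST3GAL5 have theirs in untreated cells.

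One share of ST6GAL1 was tested within each library, its part of the TPM of the 4 genes that act on N-glycan antennae (ST6GAL1, ST3GAL3, ST3GAL4 and ST3GAL6). Such a share does not depend on how a library is scaled. It was 2.68, 2.43 and 2.58% untreated, 2.09, 3.60 and 2.66% on day 2, 0.805, 1.25 and 0.848% on day 3 and 0.634, 0.596 and 0.785% on day 5. All 6 libraries of days 3 and 5 were below the untreated ones, but at day 2 library H5 was the highest of all. Over the 9 treated against the 3 untreated libraries the mean difference was -1.09 percentage points (exact two-sided permutation test over 220 choices, p = 0.136, adjusted over 6 shares 0.205). The difference did not pass the test, whose smallest possible p is 0.00455, and passed it at -1.35 points when H5 was left out, before adjustment. Most of the summed TPM was ST3GAL6, so this share does not follow ST6GAL1 alone. ST3GAL6 averaged 537 TPM untreated and 1489 at day 5, and ST6GAL1 averaged 14.5 and 10.2 TPM.

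The 4 enzymes that make CMP-sialic acid were called lower at days 3 and 5, 2 of them also after rescaling, while its transporter rose. For comparison, 61.5% and 69.8% of all tested features were lower at days 3 and 5, and 24.2% and 26.9% after rescaling. NANS, which makes the sialic acid phosphate, was the most abundant of the 4, with 80.3, 77.1 and 79.02 TPM untreated, 71.5, 70.3 and 69.03 on day 2, 27.9, 34.9 and 25.6 on day 3 and 21.1, 24.5 and 24.2 on day 5. Most of its fall came between days 2 and 3, and the day 5 value was -1.72 (SE 0.11, adjusted p = 4.22e-09). NANP, the phosphatase of the next step, had 2.49, 3.43 and 2.59 TPM untreated, 1.19, 1.03 and 1.16 on day 2, 0.719, 0.755 and 0.436 on day 3 and 0.190, 0.387 and 0.417 on day 5. All treated libraries lay below all untreated ones, and at day 5 every library was under 1 TPM, where the log2(TPM + 1) scale understates a fall (log2 fold change -1.52, SE 0.14, adjusted p = 1.59e-07). GNE, the first and rate-limiting enzyme of the route, went from 8.83 ± 0.708 TPM (SD, n = 3) untreated to 3.03 ± 0.812 at day 5 (-1.30, SE 0.15, adjusted p = 1.43e-06). CMAS, which activates sialic acid with CMP, went from 16.4 ± 2.16 to 8.32 ± 0.216 TPM (-0.89, SE 0.11, adjusted p = 3.68e-06), and its day 3 call (-0.51) was lost without H2 (-0.44), H3 (-0.46) or H9 (-0.50). NANP was lower on all 3 days and NANS at days 3 and 5 after rescaling as well, whereas CMAS and GNE were not called against day 0 on that scale. GNE and NANS each overlap a gene on the other strand, CLTA (83.1 TPM untreated, 31.5 at day 5) and TRIM14 (8.34 and 1.71 TPM), both of which had lower means at day 5.

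The 3 nucleotide sugar transporters, which belong to 1 protein family, moved apart. SLC35A2, the UDP-galactose transporter, had 7.69, 6.17 and 6.86 TPM untreated, 4.90, 5.34 and 3.30 on day 2, 1.18, 1.64 and 1.28 on day 3 and 1.18, 0.889 and 1.61 on day 5. It was lower by day 2 (-0.54, SE 0.17, adjusted p = 0.0204, a call lost without H1 or H6) and near 1 TPM from day 3 on, with a day 5 value of -1.84 (SE 0.17, adjusted p = 2.05e-07). Without H1 the day 2 value was -0.46 and without H6 it was -0.37. SLC35A3, a UDP-N-acetylglucosamine transporter, had 5.43, 10.7 and 8.27 TPM untreated, 11.4, 5.23 and 9.90 on day 2, 6.996, 8.55 and 9.21 on day 3 and 3.70, 7.77 and 7.44 on day 5. Its libraries overlapped across all 4 groups and its day 5 value was -0.34 (SE 0.29, adjusted p = 0.290). After rescaling it was called higher at day 3 (0.81) and day 5 (0.73). The ratio of SLC35A1 to SLC35A2 TPM within a library, which no scaling changes, was 1.90, 2.90 and 2.47 untreated, 3.85, 3.20 and 6.43 on day 2, 27.1, 16.2 and 24.6 on day 3 and 29.6, 39.1 and 22.8 on day 5. This ratio was looked at after the values of both genes were known, and it has no test.

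**Figure D3:**
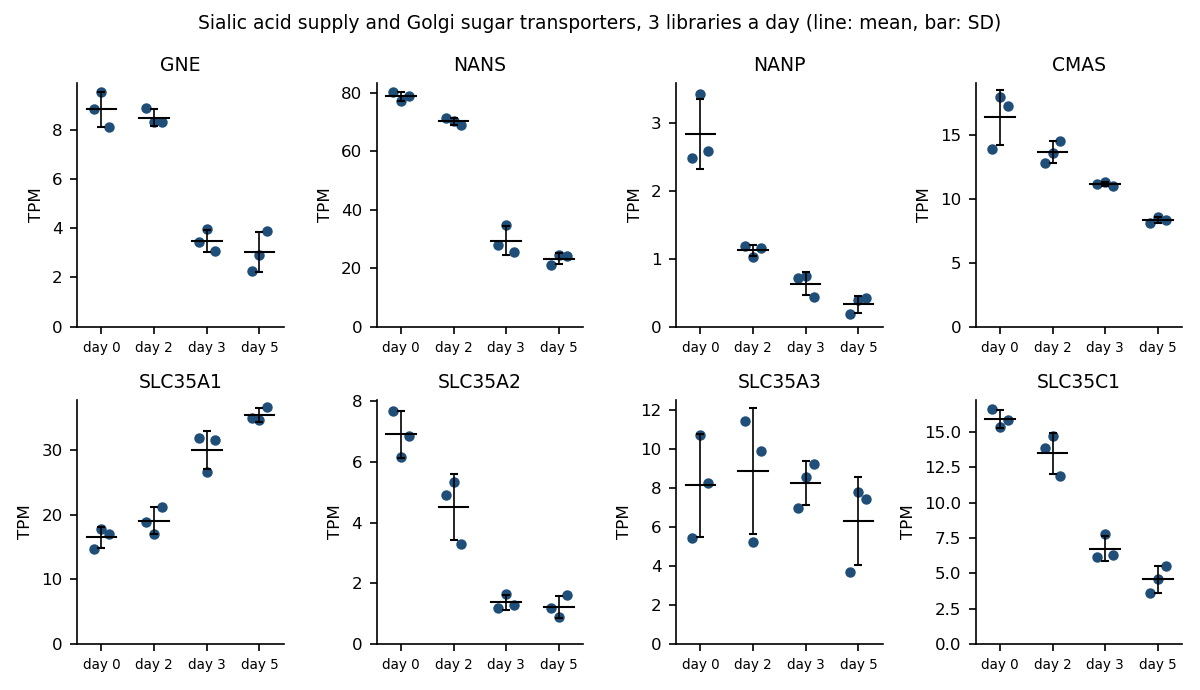
TPM in each library (points), with the group mean (line) and SD (bar, n = 3), of the 4 genes of sialic acid supply and of 4 Golgi sugar transporters; every axis starts at 0. Group means climb for SLC35A1, overlap within their SD for SLC35A3, and are lower at days 3 and 5 than untreated for the other 6.

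Genes of galactose addition showed a rise and fall in their most abundant member. B4GALT3, 1 of the enzymes that add galactose to antennae, was next to ST3GAL6 in abundance in untreated cells, with 217, 199 and 209.9 TPM untreated, 291, 331 and 284 on day 2, 133, 168 and 132 on day 3 and 73.8, 81.2 and 119 on day 5. The day 2 libraries stood above all others and those of days 3 and 5 below the untreated ones. The log2 fold change was 0.53 at day 2 (SE 0.15, adjusted p = 0.0105), -0.54 at day 3 (SE 0.15, adjusted p = 0.00438) and -1.21 at day 5 (SE 0.15, adjusted p = 3.25e-06). It was the only member called in both directions. The day 2 call was lost without H2 (0.495) or H5 (0.46) and the day 3 call without H7 (-0.48) or H9 (-0.48), in each case by the fold threshold. After rescaling B4GALT3 was higher at day 2 (0.76) and level with day 0 at day 5 (0.0028). PPOX, which overlaps it on the other strand, averaged 22.6 TPM untreated and 26.6 at day 2. With B4GALT3, the 4 members called higher at day 2 were ST6GAL1, ST3GAL1 and ST3GAL6, and this count of 4 fell to 2 without H2 or H5.

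B4GALT2, a close relative of B4GALT1, fell most in this role, with 27.7, 26.9 and 29.3 TPM untreated, 16.7, 16.1 and 14.99 on day 2, 7.003, 7.55 and 7.49 on day 3 and 4.12, 4.27 and 4.42 on day 5. The 4 groups did not overlap. It was lower on all 3 days on both scales, from -0.77 at day 2 (SE 0.10, adjusted p = 2.83e-05) to -2.46 at day 5 (SE 0.10, adjusted p = 4.68e-11). B4GALT1, the widely expressed galactosyltransferase that is also a part of lactose synthase, had 20.997, 21.9 and 20.7 TPM untreated, 21.7, 21.6 and 19.96 on day 2, 7.76, 11.9 and 7.81 on day 3 and 5.93, 5.77 and 8.92 on day 5. Its day 2 libraries overlapped the untreated ones, and its day 5 value was -1.52 (SE 0.17, adjusted p = 1.10e-06), not called after rescaling (-0.39). B4GALT4 had 9.23, 10.3 and 10.2 TPM untreated, 14.5, 9.63 and 10.5 on day 2, 6.74, 6.67 and 5.62 on day 3 and 5.17, 5.93 and 6.56 on day 5. The untreated and day 2 libraries overlapped, and its day 3 call (-0.57, SE 0.15, adjusted p = 0.00260) was lost by the fold threshold without H9 (-0.50), and after rescaling the day 5 value was 0.42 and not called.

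The share of B4GALT1 in the TPM of B4GALT1 to B4GALT4 was 7.64, 8.50 and 7.65% untreated, 6.31, 5.70 and 6.07% on day 2, 5.02, 6.11 and 5.12% on day 3 and 6.66, 5.93 and 6.44% on day 5. All 9 treated libraries were below all 3 untreated ones, with a mean difference of -1.999 percentage points (exact two-sided permutation test, p = 0.00455, the smallest this design allows, adjusted 0.0136). Most of the summed TPM was B4GALT3, so the share does not follow B4GALT1 alone. At day 2 B4GALT1 averaged 21.1 TPM (21.2 untreated), while B4GALT3 averaged 302 TPM (209 untreated). The other 3 genes of this role act on glycolipids (B4GALT5), on the linker of proteoglycans (B4GALT7) or make UDP-glucose, from which UDP-galactose is derived (UGP2). Their mean levels were 7.32 ± 0.247, 10.3 ± 0.706 and 46.2 ± 2.90 TPM (SD, n = 3) untreated and 2.84 ± 0.675, 4.88 ± 0.870 and 28.5 ± 2.63 TPM at day 5. All 3 were called lower at day 5 on the deposited scale (69.8% of all features), and after rescaling UGP2 was called higher (0.51, where 27.5% of all features were higher).

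The 5 N-acetylglucosaminyltransferases were all called lower at days 3 and 5, but after rescaling only MGAT5 was. Shares of all tested features lower on these days were 61.5% and 69.8%, or 24.2% and 26.9% after rescaling. MGAT5 adds the antenna that can be extended into poly-N-acetyllactosamine and that binds galectins. It had 17.1, 15.6 and 13.9 TPM untreated, 7.58, 9.06 and 7.34 on day 2, 1.94, 3.42 and 2.19 on day 3 and 1.57, 1.52 and 2.41 on day 5. Every treated library was below every untreated one, and the log2 fold change was -0.88 at day 2 (SE 0.17, adjusted p = 0.00103), -2.25 at day 3 (SE 0.17, adjusted p = 5.97e-08) and -2.56 at day 5 (SE 0.17, adjusted p = 8.54e-09), the largest fall of the 34 genes at days 3 and 5 on the log2(TPM + 1) scale. In mean TPM, the day 5 level was 11.8% of the untreated one for MGAT5 and 11.7% for NANP. MGAT5 remained lower on all 3 days after rescaling (day 5 -1.58). MGAT4A, 1 of a pair of enzymes that add another branch, was scarce, with 3.38, 3.35 and 6.44 TPM untreated, 2.996, 2.44 and 2.28 on day 2, 1.84, 1.77 and 2.14 on day 3 and 1.24, 1.28 and 1.49 on day 5. The library H3 stood high among the untreated, and the day 2 call (-0.55, SE 0.18, adjusted p = 0.0270) was lost without it (-0.29), without H5 (-0.52) and without H6 (-0.49). Its day 5 value was -1.16 (SE 0.18, adjusted p = 4.48e-05).

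MGAT4B, the partner of MGAT4A, had 27.6, 24.8 and 24.8 TPM untreated, 33.9, 30.3 and 25.99 on day 2, 14.3, 17.8 and 12.03 on day 3 and 10.1, 13.3 and 15.6 on day 5. The untreated and day 2 libraries overlapped and those of days 3 and 5 were lower (-0.95 at day 5, SE 0.16, adjusted p = 8.18e-05). SQSTM1 lies across it on the other strand and averaged 82.1 TPM untreated and 138 at day 5, the opposite direction. MGAT1, the enzyme that opens the way from high-mannose to hybrid and complex glycans, had 64.1, 58.2 and 60.8 TPM untreated, 71.5, 73.9 and 59.8 on day 2, 36.2, 39.5 and 37.7 on day 3 and 22.7, 27.7 and 30.1 on day 5. MGAT2, which completes the change to a complex glycan, had 38.01, 42.9 and 43.6 TPM untreated, 48.8, 49.2 and 48.04 on day 2, 29.8, 27.7 and 26.5 on day 3 and 18.1, 21.1 and 22.8 on day 5. Day 2 was the highest group of MGAT2, without passing the test (0.23, SE 0.10, adjusted p = 0.0786). At day 5 MGAT1 was at -1.17 (SE 0.11, adjusted p = 2.94e-07) and MGAT2 at -0.98 (SE 0.10, adjusted p = 5.61e-07), near the median of all features, and neither was called after rescaling.

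The 3 branching enzymes together held a smaller part of the MGAT transcripts in treated cells. Taken singly, only MGAT5 held a smaller part than untreated in every treated library. MGAT4A held 2.25, 2.31 and 4.30% untreated, and the treated libraries H9 (2.66%) and H10 (2.31%) lay within that range. The part of MGAT4B overlapped the untreated range (16.6 to 18.4%) at days 2 and 3 and lay above it at day 5 (18.9 to 21.6%). Together MGAT4A, MGAT4B and MGAT5 held 31.97, 30.2 and 30.2% untreated, 26.98, 25.4 and 24.8% on day 2, 21.5, 25.4 and 20.3% on day 3 and 24.1, 24.8 and 26.96% on day 5 of the TPM of the 5 genes. All 9 treated libraries were below all 3 untreated ones, with a mean difference of -6.33 percentage points (exact two-sided permutation test, p = 0.00455, the smallest this design allows, adjusted 0.0136). MGAT5 alone held 10.5 ± 1.05% untreated and 2.86 ± 0.490% at day 5 (SD, n = 3), and MGAT4B held 17.4 ± 0.915% untreated, 19.02 ± 1.34% at day 2, 17.2 ± 2.39% at day 3 and 20.3 ± 1.35% at day 5. The share of MGAT4A in MGAT4A and MGAT4B was 10.9, 11.9 and 20.6% untreated, 8.13, 7.45 and 8.08% on day 2, 11.4, 9.07 and 15.1% on day 3 and 10.9, 8.77 and 8.68% on day 5. Its mean difference of -4.73 points did not pass the test (exact permutation p = 0.0545, adjusted 0.109), and it depended on H3, without which it was -1.66 points.

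**Figure D4:**
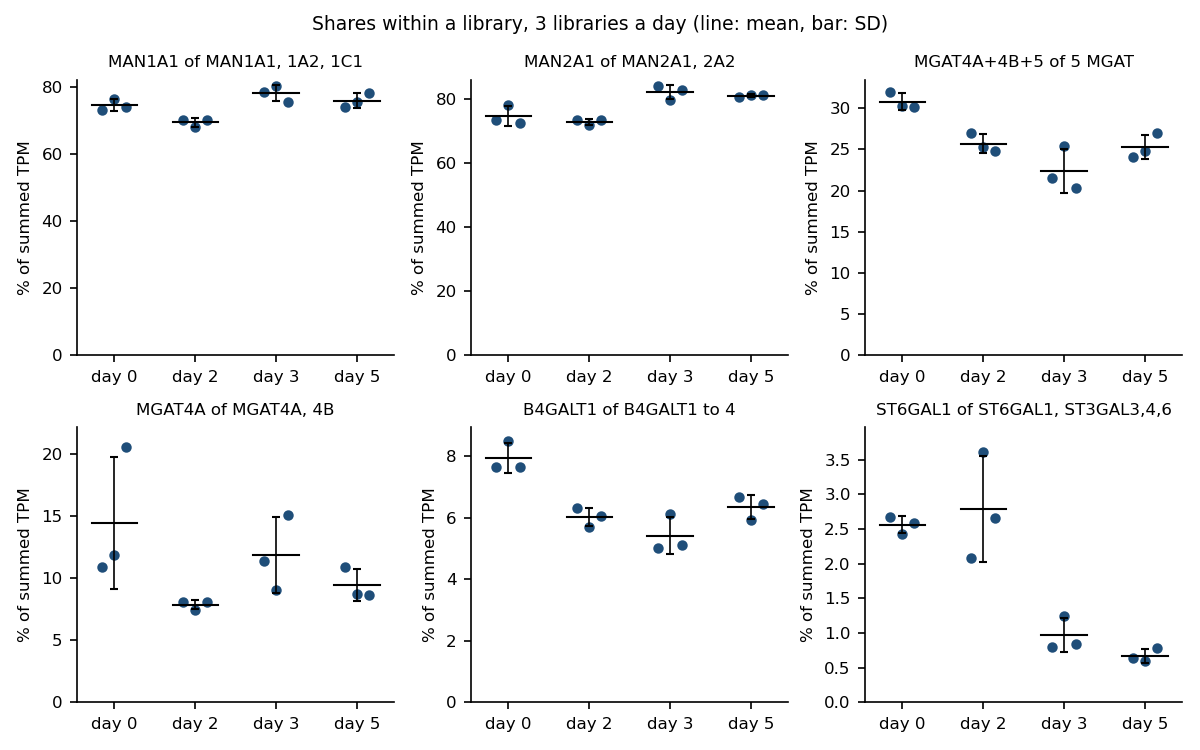
The 6 shares tested within a library, in percent of the summed TPM of the genes named above each panel, for each library (points) with the group mean (line) and SD (bar, n = 3); every axis starts at 0. The branching share of the MGAT genes and the B4GALT1 share are below the untreated range in all 9 treated libraries, and the other 4 overlap it.

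No mannosidase was called at day 2 and all 5 were called lower at days 3 and 5, of which MAN1C1 at both days and MAN1A1 at day 5 remained lower after rescaling. Among all tested features 61.5% and 69.8% were lower at days 3 and 5, and 24.2% and 26.9% after rescaling. MAN1C1, which with MAN1A1 and MAN1A2 removes the last α-linked mannoses before MGAT1 can act, had 40.7, 38.2 and 42.3 TPM untreated, 44.03, 44.03 and 42.3 on day 2, 11.7, 12.6 and 13.5 on day 3 and 6.14, 5.77 and 6.997 on day 5. The untreated and day 2 libraries overlapped, and it then dropped to -1.61 (SE 0.10, adjusted p = 6.94e-09) and -2.51 (SE 0.10, adjusted p = 4.30e-11), lower on both scales. MAN1A1, the most abundant mannosidase, had 146, 165 and 144 TPM untreated, 127, 123 and 127 on day 2, 66.6, 78.96 and 60.6 on day 3 and 32.7, 34.96 and 51.8 on day 5. No group overlapped its neighbour, and the day 5 value was -1.93 (SE 0.15, adjusted p = 2.72e-08), or -0.72 after rescaling. MAN1A2 had 12.2, 12.01 and 7.81 TPM untreated, 9.71, 13.7 and 11.4 on day 2, 6.28, 6.62 and 6.03 on day 3 and 5.28, 5.50 and 7.27 on day 5. The library H3 was low among the untreated for MAN1A2, and the day 5 value was -0.72 (SE 0.17, adjusted p = 0.00142).

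MAN2A1, the Golgi mannosidase that trims the product of MGAT1, had 58.5, 64.9 and 56.2 TPM untreated, 61.97, 50.7 and 53.1 on day 2, 39.8, 45.6 and 37.3 on day 3 and 27.3, 27.6 and 35.6 on day 5. The log2 fold change was -0.54 at day 3 (SE 0.12, adjusted p = 0.00106, a call lost by the fold threshold at -0.48 without H2 and at -0.48 without H9) and -0.97 at day 5 (SE 0.12, adjusted p = 4.18e-06). MAN2A2 had 21.04, 17.997 and 21.2 TPM untreated, 22.4, 19.8 and 18.9 on day 2, 7.45, 11.5 and 7.76 on day 3 and 6.55, 6.28 and 8.19 on day 5. The day 5 value was -1.40 (SE 0.15, adjusted p = 1.09e-06). Whether the 2 genes differed in their fall was tested by the share of MAN2A1 in their summed TPM, which was 73.6, 78.3 and 72.6% untreated, 73.5, 71.9 and 73.7% on day 2, 84.2, 79.9 and 82.8% on day 3 and 80.6, 81.4 and 81.3% on day 5. The days 3 and 5 libraries were all above the untreated ones, day 2 overlapped them, and the mean difference over all treated libraries was 3.99 points (exact permutation p = 0.182, adjusted 0.218). The share of MAN1A1 among the 3 MAN1 genes was 73.3, 76.6 and 74.2% untreated, 70.3, 68.05 and 70.3% on day 2, 78.7, 80.4 and 75.6% on day 3 and 74.1, 75.6 and 78.4% on day 5, with no difference that passed the test (-0.0932 points, exact permutation p = 0.968). Day 2 lay below and day 3 mostly above the untreated range.

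The 3 genes of core fucosylation and fucose supply were called lower at days 3 and 5, and after rescaling 2 of them at day 5 and none at day 3. Across all tested features, 61.5% were lower at day 3 and 69.8% at day 5, or 24.2% and 26.9% after rescaling. GMDS, which starts the making of GDP-fucose from GDP-mannose, had 16.2, 18.6 and 17.1 TPM untreated, 14.3, 13.9 and 14.96 on day 2, 7.59, 9.46 and 6.71 on day 3 and 2.81, 3.59 and 5.41 on day 5. All treated libraries were below all untreated ones. The steps between days 2 and 3 (-0.80) and between days 3 and 5 (-0.88, SE 0.17, adjusted p = 0.00293) were of similar size. The day 5 value of GMDS against day 0 was -1.92 (SE 0.17, adjusted p = 1.27e-07). SLC35C1, the Golgi GDP-fucose transporter, had 16.6, 15.3 and 15.8 TPM untreated, 13.9, 14.7 and 11.9 on day 2, 6.14, 7.76 and 6.30 on day 3 and 3.61, 4.62 and 5.51 on day 5. At day 5 it was at -1.61 (SE 0.14, adjusted p = 1.12e-07). FUT8, the only enzyme known to add the core fucose, went from 19.6 ± 1.06 TPM (SD, n = 3) untreated to 14.9 ± 0.808 at day 2, 10.7 ± 0.725 at day 3 and 7.52 ± 0.819 at day 5 (-1.28, SE 0.11, adjusted p = 7.77e-08). After rescaling GMDS and SLC35C1 were lower at day 5 (-0.86 and -0.53) and FUT8 was not called (-0.15).

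Promoters of members were searched for ACGTGGC, a motif known to be bound by TFE3 when the Golgi is stressed, and 5 of the members searched held it. The search covered RefSeq windows of 30 of the 34 genes. MAN1A2, MGAT4A, ST3GAL1 and ST3GAL2 were not covered, so whether they hold the motif was not tested. Of the 62 windows searched, 5 held the motif on either strand, where 3.22% of all windows do. The 5 sites are shown because the genes share the letters and all 5 were called lower at days 3 and 5. Each line gives 25 bases on the strand of the motif, 5′ to 3′, with the motif in capitals.
B4GALT2 (chr1:43979863-43979887, - strand): aggctgaacACGTGGCacccgcgga
MGAT1 (chr5:180802829-180802853, + strand): gggcgggcaACGTGGCccttccccg
NANS (chr9:98056684-98056708, + strand): cgcgggctgACGTGGCggggctggc
SLC35C1 (chr11:45805084-45805108, - strand): cacgcccccACGTGGCcttaaaggg
ST3GAL5 (chr2:85888806-85888830, - strand): ggccgaggtACGTGGCgcagccccc
All 5 sites lie before the RefSeq start of their own window on GRCh38.p14. The NANS site lies outside the GENCODE span of its gene, while those of B4GALT2, MGAT1, SLC35C1 and ST3GAL5 lie inside theirs. MGAT1, SLC35C1 and ST3GAL5 also have other RefSeq windows, in which the motif was not found. The NANS site overlaps the UPRE core TGACGTGG, which 0.73% of all windows hold. The sites of B4GALT2 and SLC35C1 overlap an E-box, CACGTG, which a window of ST3GAL4 also holds and which is in 7.26% of all windows. Both these motifs were searched on either strand. The 5 genes ranged at day 5 from -2.46 (B4GALT2) to -1.17 (MGAT1), and after rescaling MGAT1 was not called while the other 4 were lower. With 28 and 29 of 34 members called lower at days 3 and 5, most genes with any motif were lower.

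Other genes of glycan synthesis were examined in 7 lists, written with earlier results of these data known. Most were called lower at day 5 on the deposited scale, and they differed in size of fall. After rescaling at day 5, the list of Golgi retention held 4 rises and 2 falls among 19 genes. The Golgi O-glycan enzymes held 4 and 1 among 13, and the sialidases 1 and 0 among 5. On that scale 26.9% of all tested features were lower and 27.5% higher. Upstream of the Golgi, all 10 genes of glucose and mannose trimming in the endoplasmic reticulum were called lower at days 3 and 5, and 5 of them at day 5 after rescaling. GANAB, the catalytic subunit of glucosidase II, fell most (-2.08, SE 0.13, adjusted p = 3.37e-09) and MAN1B1 least (-0.88, SE 0.11, adjusted p = 3.96e-06). Of 19 genes for Golgi retention and homeostasis, 16 were called lower and none higher at day 5, from GOLGA2, a cis-Golgi matrix protein (-1.76, SE 0.14, adjusted p = 3.64e-08), to COG6, a tethering subunit (0.13, SE 0.14, adjusted p = 0.378, not called). After rescaling 2 were lower and 4 higher.

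Of 10 tested genes of other N-glycan Golgi enzymes, 9 were lower at day 5, with the polysialyltransferase ST8SIA2 the lowest (-2.91, SE 0.17, adjusted p = 2.10e-09) and the endomannosidase MANEA, which offers a Golgi bypass of glucosidase trimming, the highest (0.06, SE 0.13, adjusted p = 0.685). MANEA was called higher at day 2 (0.68, SE 0.13, adjusted p = 9.32e-04) and day 3 (0.54, SE 0.13, adjusted p = 0.00165). In this list 6 genes were lower and 1 higher at day 5 after rescaling. Of 13 O-glycan enzymes, 8 were lower at day 5 and 1 was higher, C1GALT1C1, the chaperone Cosmc of the core O-glycan galactosyltransferase (0.61, SE 0.10, adjusted p = 6.10e-05), and GALNT2 fell most (-1.37, SE 0.18, adjusted p = 5.45e-06). After rescaling 1 was lower and 4 higher.

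Of 21 tested genes of other nucleotide sugar supply, 17 were lower at day 5, and FPGT had the highest value (0.30, SE 0.12, adjusted p = 0.0258). After rescaling 5 were lower and 5 higher. All 7 glycolipid and proteoglycan linker enzymes were lower at day 5, from B4GALNT1, the GM2 synthase (-2.40, SE 0.18, adjusted p = 2.81e-08), to B3GALT6 (-0.63, SE 0.14, adjusted p = 7.93e-04), and after rescaling 2 were lower and none higher. All 5 genes of sialidases and sialic acid turnover were lower, from the protective protein CTSA (-1.51, SE 0.15, adjusted p = 3.14e-07) to the lysosomal sialidase NEU1 (-0.58, SE 0.11, adjusted p = 1.47e-04), which was called higher after rescaling (0.61). None of the 5 was lower after rescaling. The counts of these lists stand against the same shares of all tested features. At day 5 these were 69.8% lower and 7.73% higher on the deposited scale, and 26.9% and 27.5% after rescaling.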

How the data were processed

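RNA from MM1S cells was sequenced in 12 libraries (200 ng RNA each). Per the submitters' processing notes, reads were handled with FastQC, Trimmomatic, STAR and Salmon on hg38, with no versions given, and the annotation and the use of strand are not given in the sources used here. The authors deposited log2 values of TPM plus 1 per gene symbol; the pseudocount of 1 is theirs. Undoing the log2 gave the same total TPM in every library, but for rounding.

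The low-value filter kept features at TPM 1 or more in 3 or more libraries. The test was limma 3.58.1 in R 4.3.3 (lmFit with 1 mean per group over all 12 libraries, eBayes with a mean-variance trend, two-sided, Benjamini-Hochberg adjustment within a contrast). The procedure was tested on simulated data. The 6 shares were tested in Python 3.11.15 with numpy 2.4.6. Gene positions came from GENCODE release 29 and promoters from RefSeq (GRCh38.p14). The members and lists were chosen with earlier results of these data known. Values are given in every library for members called higher on any day, the 2 largest day 5 falls of each role and the genes of the shares, and of each further list the largest rise and fall at day 5 are named, with MANEA also given at days 2 and 3 after its values were seen. Not every gene this rule selects is reported here. Of the list of nucleotide sugar supply, 23 of 25 symbols were found. Alternatives were rescaling, other filters, a pseudocount of 0.1, the 20 most abundant features left out, pairwise fits, no trend, a fold threshold of 1 and each library left out.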

Additional observations from a re-analysis of the deposited data

Results flagged for a closer look

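The effect against day 0 differed between neighbouring time points, by limma's test of that difference, for 25 members between days 2 and 3 and for 6 between days 3 and 5. Between days 2 and 3, the log2 differences were higher for ST3GAL6 (0.71) and SLC35A1 (0.63), both called after rescaling as well. They were lower on both scales for MAN1C1 (-1.71), MGAT5 (-1.37), NANS (-1.24), SLC35A2 (-1.20), B4GALT1 (-1.15), MAN2A2 (-1.13) and GNE (-1.09). On the deposited scale alone they were lower for B4GALT3 (-1.07), B4GALT2 (-1.02), MGAT4B (-0.99), SLC35C1 (-0.91), B4GALT7 (-0.88), MAN1A1 (-0.87), MGAT1 (-0.83), B4GALT5 (-0.83), ST3GAL5 (-0.82), ST6GAL1 (-0.80), GMDS (-0.80), ST3GAL3 (-0.78), MGAT2 (-0.78), MAN1A2 (-0.78), B4GALT4 (-0.76) and ST3GAL1 (-0.51, adjusted p = 0.0274). Between days 3 and 5 they were lower on both scales for MAN1C1 (-0.90) and GMDS (-0.88), and on the deposited scale alone for MAN1A1 (-0.79), B4GALT3 (-0.68), B4GALT2 (-0.66) and ST3GAL5 (-0.55). B4GALT3 is the member whose calls against day 0 changed direction, higher at day 2 and lower afterwards.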

How the results depend on the processing

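After rescaling, the calls were 7 lower with 5 higher (day 3), 11 lower with 6 higher (day 5), 7 lower between days 2 and 3, and 2 lower and 2 higher between days 3 and 5. With a fold threshold of 1 they were none in either direction at day 2, 15 lower and 1 higher at day 3 (36.0% of all features lower), 19 lower at day 5 (49.5%), 9 lower and 0 higher between days 2 and 3 (16.6%), and 0 lower between days 3 and 5 (0.511%); these differences follow from the stricter threshold. Rescaling turned the direction of 26 single values against day 0 that were called on at least 1 of the scales. At day 3 these became 0.12 (MAN1A2), 0.31 (MAN2A1), 0.17 (MGAT1), 0.29 (MGAT2), 0.041 (MGAT4B), 0.33 (B4GALT3), 0.20 (B4GALT4), 0.10 (B4GALT7), 0.64 (ST6GAL1), 0.11 (ST3GAL3) and 0.30 (CMAS). At day 5 they became 0.36 (MAN1A2), 0.22 (MAN2A1), 0.030 (MGAT1), 0.21 (MGAT2), 0.21 (MGAT4B), 0.0028 (B4GALT3), 0.42 (B4GALT4), 0.12 (B4GALT7), 0.51 (UGP2), 0.64 (ST6GAL1), 0.92 (ST3GAL1), 0.33 (ST3GAL3), 0.22 (ST3GAL4), 0.24 (CMAS) and 0.73 (SLC35A3). Values called on neither scale are outside this count, and some of them turned too. At day 2 such values became 0.21 (B4GALT1), 0.11 (MAN2A1), 0.16 (GNE) and 0.067 (NANS). Leaving out each library in turn gave 2 to 4 members higher at day 2 and 5 to 12 lower between days 3 and 5. The other filters, the pseudocount, the pairwise fits, the fit without a trend and the table without its 20 most abundant features left every count within 1.5 times its main value.

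For the shares, the MAN1A1 difference turned to 2.43 points without day 2 and to 0.0070 as a log2 ratio, and ranged from -0.817 to 0.858 over left-out libraries. Without day 2, MAN2A1 reached 6.88 points and ST6GAL1 -1.74 points (exact permutation p = 0.0119 for both). MGAT4A reached -0.62 as a log2 ratio and -5.80 points without day 3, and ranged from -6.51 to -1.66 over left-out libraries, and ST6GAL1 ranged from -1.35 to -0.979. The branching and B4GALT1 shares kept their direction and passed under every alternative run. The cause of these shifts was not tested. No paired analysis was possible because the labels number the libraries H1 to H12 and the groups share no replicate numbers. TPM keeps no counts, so a detection limit for genes near 1 TPM (MGAT4A, SLC35A2, NANP) cannot be given.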
